A study of Mus musculus with 4 samples.

Results

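The translation initiation factor genes are the genes whose symbol starts with Eif followed by a digit, and both tables list the same 55 of them among 22481 symbols. Of these, 54 had enough fragments to be tested, and Eif4ebp3 had 0 fragments in every library. They were measured in brown adipose tissue of mice by RNA immunoprecipitation sequencing, in which RNA bound to a protein is pulled down with an antibody and sequenced. IP is the RNA recovered with an antibody against FAM172A, the protein under study, and IgG is the RNA recovered with control immunoglobulin. The 4 libraries form 2 pairs, each with 1 IP and 1 IgG library. All 4 titles carry WT. Ribosomal RNA was depleted and the libraries were directional. The labels give cold as the protocol of 1 IP and 1 IgG library and give no protocol for the pair titled WT4. The columns of the other table are named only IP and IgG, so that the cold libraries belong to it by elimination. It is called the first pair here. Strain, age and the number of animals are not given in the sources used here. Whether each pair is a different animal is not stated, so p-values measure only the spread between these libraries, which may be technical.

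Translation initiation brings a ribosome to the start codon of an mRNA. eIF2 carries the initiator tRNA to the small ribosomal subunit, and eIF2B recharges eIF2 with GTP. The kinases Eif2ak1 to Eif2ak4 phosphorylate the alpha subunit of eIF2 under stress, which blocks eIF2B and lowers protein synthesis. eIF3 is the large scaffold on the small subunit, and eIF4 factors bind the mRNA cap and unwind the leader. The series asked which mRNAs are bound by FAM172A in brown fat, the tissue that burns lipid for heat, in the cold.

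The libraries held 6633658 IP against 5587295 IgG first-pair fragments, and 1631883 IP against 360371 IgG WT4 fragments. Fragment numbers below are not scaled for this depth, while folds, log2 ratios and scaled CPM use the authors' scaling. That scaling did not make the WT4 totals equal, with scaled counts summing to 1192800 in IP and 977241 in IgG. The tissue label was checked against its markers. All 8 brown adipocyte markers had fragments in all 4 libraries, with summed levels of 13396 scaled CPM in IP and 12392 in IgG in the first pair, and 7276 in IP and 3456 in IgG in the WT4 pair. Scaled CPM is the authors' scaled count divided by the mean total of its pair, times 1000000. All 5 skeletal muscle markers and all 4 endothelial markers were also found in every library. The muscle sum ranged from 1222 to 4302 scaled CPM and the endothelial sum from 689 to 1848, with the lowest endothelial sum in the first IP library against 1685 in its IgG library. The 3 macrophage markers measured summed to 16.4 and 21.7 scaled CPM in the IP libraries and to 6.41 and 75.0 in the IgG libraries, and Csf1r was at 0 in 3 libraries. The 3 blood markers summed to 72.4 and 51.9 in the IP libraries and to 168 and 2.50 in the IgG libraries, with Hbb-bs and Alas2 at 0 in WT4 IgG. The part of other cell types in the results was not tested, and in bulk tissue fewer cells of a type and less RNA per cell cannot be told apart.

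In the first pair, most initiation factor genes lay within 2-fold between the IP and IgG libraries, which does not show that they were equal. This held for 45 of 54 genes, while 6 were at least 2-fold higher in IP, with 3 that much lower. Over all 16217 genes tested, 13.3% were that much higher and 26.9% that much lower. The median log2 ratio was 0.10 for the initiation factor genes and -0.03 for all genes. The ratio was taken on scaled CPM plus 1, which shrinks the ratios of low genes. In the WT4 pair 30 of 54 were at least 2-fold higher in IP, with 7 that much lower, against 51.6% and 19.3% of all genes, and the medians were 1.13 and 1.17. Of the 30 higher genes 19 were at 0 fragments in WT4 IgG, which was the shallowest library. Centred on the median of all genes, the WT4 counts were 18 higher and 15 lower. Scaled by the total fragments of each library, they were 24 and 8, with medians of 0.85 for the members and 0.90 for all genes. The shares of all genes past the line are not given for either scaling.

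Fewer were past the 2-fold line among genes detected in every library. Of the 34 initiation factor genes with a fragment in all 4 libraries, 4 were at least 2-fold higher in first-pair IP and 0 lower, against 9.82% and 18.4% of all such genes. WT4 ratios put 11 higher and 6 lower, against 24.3% and 21.2%. The median ratios of these 34 genes were 0.38 (first pair) and 0.46 (WT4), against -0.13 and 0.08 over all genes detected in all 4 libraries. Of the 43 members with a mean of at least 20 scaled CPM, 5 were past the line upwards in the first pair and 0 downwards, against 9.32% and 19.6% of genes at that level. For WT4 these numbers were 21 and 6, against 34.2% and 20.2%. The restriction to genes detected in all 4 libraries was chosen after the values had been seen, and it removes the genes listed at 0 in a library.

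**Figure D1:**
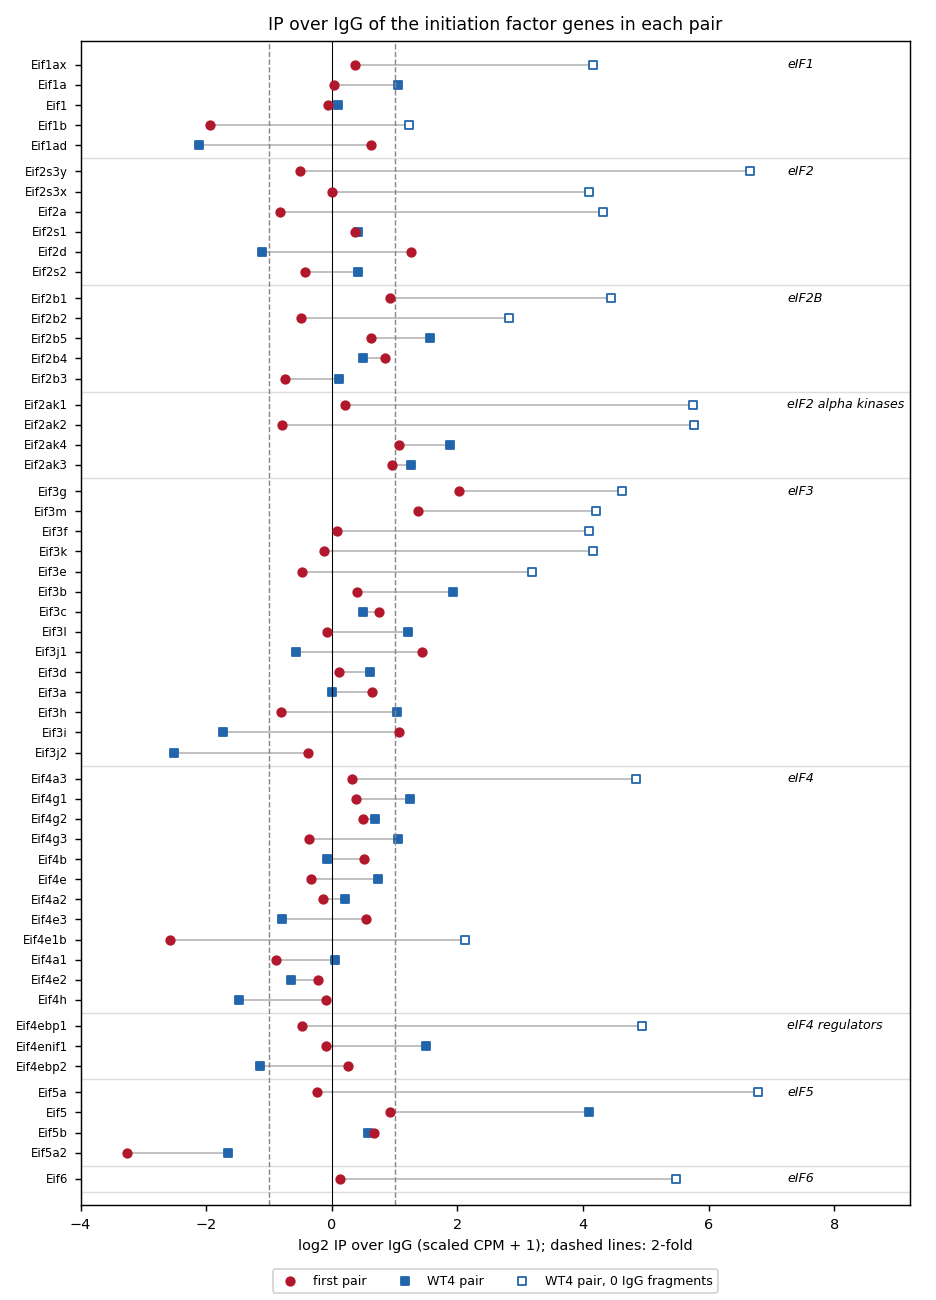
The log2 ratio of IP over IgG is plotted for each of the 54 tested initiation factor genes, grouped by factor, with circles for the first pair, squares for the WT4 pair and dashed lines at 2-fold. Most circles lie between the dashed lines, while the open squares, which mark 0 fragments in the WT4 IgG library, lie to the right at 1.23 to 6.78.

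Across both pairs no initiation factor gene passed the test. edgeR's quasi-likelihood test with the pair as a block called 0 of 54 (Benjamini-Hochberg adjusted p = 1.0 for each), and 1 of all 16217 genes, which is 0.00617%. At an unadjusted p under 0.05 it had 2 initiation factor genes higher in IP, Eif5 and Eif5a, and 0 lower, against 0.857% and 0.592% of all genes. Both members, and all 139 genes that make up the 0.857%, had a mean of at least 20 scaled CPM. That level was reached by 43 members and 7681 genes. DESeq2 and limma also called 0 initiation factor genes. At an unadjusted p under 0.05 DESeq2 had 3 of them higher in IP and 0 lower, against 255 and 355 of all 16217 genes. By limma 0 were higher and 0 lower, against 169 and 51 of all genes. The test rests on 1 residual degree of freedom, and its spread was pooled across genes. That spread was wide (common dispersion 1.47), so not passing the test does not show that IP and IgG were equal.

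Going the same way by at least 2-fold in both pairs was uncommon. Eif2ak4, Eif3g and Eif3m were higher in IP in both, against 7.19% of all genes, and Eif5a2 was lower in both, against 5.25%. Eif3g was higher and Eif5a2 lower in both pairs with every scaling, pseudocount, minimum level and measure tried. Both have 0 fragments in a library, so neither is left among the genes detected in all 4. Eif2ak4 dropped out with the larger pseudocount, when centred and in FPKM, and Eif3m with the larger pseudocount and the higher minimum level. Eif1b, Eif2d, Eif3i and Eif4e1b went at least 2-fold opposite ways, against 17.3% of all genes. Of the 43 members with a mean of at least 20 scaled CPM, 2 were higher in both pairs, 0 lower in both and 2 opposite. Among the 7681 genes at that level, 214 were higher in both, 448 lower in both and 632 opposite.

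**Figure D2:**
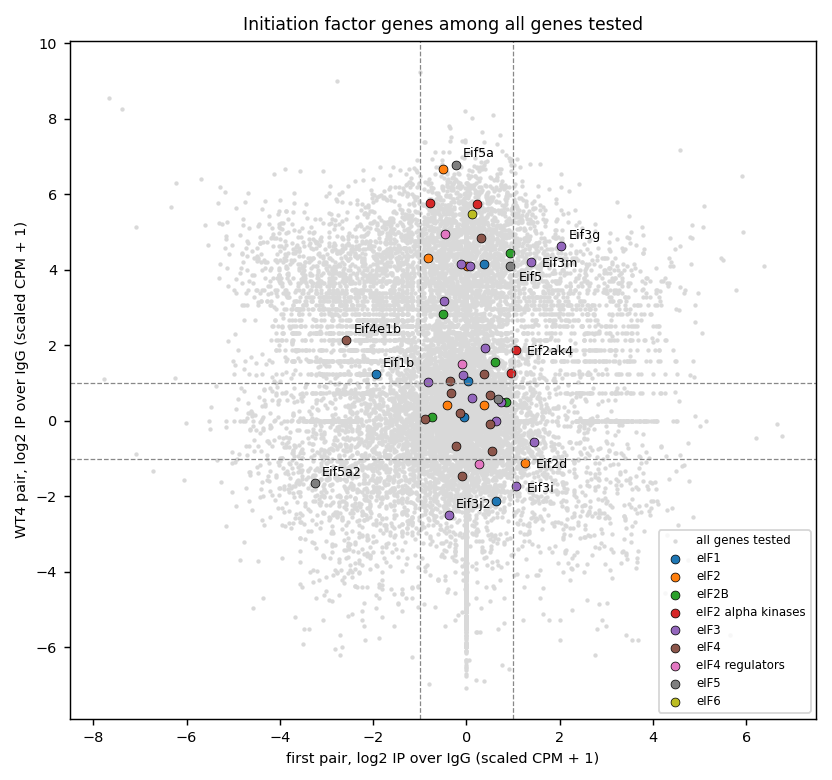
Each point is 1 gene, with its log2 ratio of IP over IgG in the first pair on the horizontal axis and in the WT4 pair on the vertical axis. Grey points are the 16217 genes tested, coloured points the initiation factor genes by factor, and dashed lines mark 2-fold. Eif3g, Eif3m and Eif2ak4 lie in the upper right corner, and Eif5a2 is the initiation factor gene in the lower left corner.

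The eIF5 group held the genes with the lowest p-values. Eif5, the GTPase activator of eIF2 (chromosome 12, 111538016 to 111546752, plus strand, GRCm38), had 2684 IP against 1201 IgG first-pair fragments. In the WT4 pair it had 468 IP against 7 IgG fragments. In scaled CPM this was 407 in IP and 214 in IgG, then 315 in IP and 17.5 in IgG. IP was above IgG in both pairs, and the WT4 IgG library stood far below the other 3. The fold of IP over IgG was 1.9 (95% exact counting interval 1.78 to 2.04) in the first pair and 18.0 (8.68 to 45.1) in the WT4 pair. All such intervals reflect counting alone, because reads that carry no molecular identifier may be copies of 1 molecule. Eif5 had a fitted log2 fold change of 2.40 (edgeR, unadjusted p = 0.000775, adjusted p = 1.0, higher in both pairs). Without the pair block the value was 1.61 (edgeR, unadjusted p = 0.0615). Leaving out 1 library in that unblocked fit gave 0.76 without WT4 IgG (unadjusted p = 0.474), 1.42 without first IP, 1.79 without WT4 IP and 4.36 without first IgG.

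Eif5a, the hypusine-containing factor that also aids elongation (chromosome 11, 69916714 to 69921958, minus strand), was above IgG in the WT4 pair only. It had 1103 IP against 1105 IgG first-pair fragments, and 162 IP against 0 IgG WT4 fragments. The first pair's ratio was -0.23 on the log2 scale. Eif5a was at least 14.6-fold higher in WT4 IP, taking a floor of 3 fragments for the library at 0. Its edgeR log2 fold change was 2.12 (unadjusted p = 0.0371, adjusted p = 1.0, higher in 1 of 2 pairs). Without the pair block it was 0.46 (edgeR, unadjusted p = 0.620). Without the WT4 IgG library the unblocked value was -0.51 (unadjusted p = 0.573), the opposite direction.

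The paralogue Eif5a2 (chromosome 3, 28781276 to 28798846, plus strand) was the 1 member at least 2-fold lower in both pairs. It had 0 IP against 48 IgG first-pair fragments, and 12 IP against 11 IgG WT4 fragments. Scaled for depth these were 0 in IP and 8.55 in IgG, then 8.08 in IP and 27.5 in IgG. IP lay below IgG in each pair. In the first pair it was at least 18.8-fold lower in IP against the floor, and in the WT4 pair the fold was 0.294 (0.119 to 0.736). Its mean log2 ratio was -2.45 ± 1.14 (SD, n = 2 pairs), and edgeR gave an adjusted p of 1.0. The coding starts of Eif5a and Eif5a2 are shown because the paralogues lay on opposite sides of IgG in the WT4 pair. The first 90 coding bases differ at 25 positions, marked by capitals (GENCODE vM21 transcripts, GRCm38, 5′ to 3′):
Eif5a: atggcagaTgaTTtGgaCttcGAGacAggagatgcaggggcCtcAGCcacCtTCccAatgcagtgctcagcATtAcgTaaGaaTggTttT
Eif5a2: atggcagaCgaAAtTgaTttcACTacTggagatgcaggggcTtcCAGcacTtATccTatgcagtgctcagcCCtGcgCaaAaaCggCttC
Of the 462 coding bases of Eif5a 336 were identical in Eif5a2, which is 72.7%, and the longest identical stretch was 14 bases. In the Eif5a transcript 7.13% of windows of 50 bases occur in other annotated genes, and 0 of those of Eif5a2 do.

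Eif5b, the subunit-joining GTPase, had 2123 IP against 1134 IgG first-pair fragments and 427 IP against 77 IgG WT4 fragments. Its folds were 1.59 (1.48 to 1.71) and 1.49 (1.17 to 1.93), with a mean log2 ratio of 0.62 ± 0.07 (SD, n = 2 pairs). Centred on the median of all genes in each pair the mean was 0.05, so the value depends on the scaling. The table gives Eif5b a locus shared with another gene, which makes its count uncertain. Eif6, which holds large ribosomal subunits apart, had 208 IP against 162 IgG first-pair fragments. In the WT4 pair it had 65 IP against 0 IgG fragments, at least 5.84-fold higher against the floor. Its locus is shared as well.

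All 4 kinases of eIF2 alpha were at least 2-fold higher in WT4 IP, and 1 of them, Eif2ak4, also in the first pair. Of all genes 51.6% were that much higher in WT4 IP and 13.3% in first-pair IP. For genes with a mean of at least 20 scaled CPM, a level that all 4 kinases reached, these shares were 34.2% and 9.32%. In WT4 IgG 2 of the kinases had 0 fragments, against 43.0% of all genes. The share was 21.7% for genes with a mean of at least 20 scaled CPM in the other 3 libraries. Eif2ak4, known as GCN2 and activated by amino acid shortage (chromosome 2, 118388618 to 118475234, plus strand), had 471 IP against 188 IgG first-pair fragments and 86 IP against 6 IgG WT4 fragments. Its folds were 2.13 (1.80 to 2.54) and 3.86 (1.70 to 10.8), with IP above IgG in both pairs. The mean log2 ratio was 1.48 ± 0.57 (SD, n = 2 pairs) and the unadjusted p was 0.305 (edgeR).

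Eif2ak3, known as PERK, the kinase that senses unfolded protein in the endoplasmic reticulum (chromosome 6, 70844515 to 70905245, plus strand), had 365 IP against 158 IgG first-pair fragments and 91 IP against 10 IgG WT4 fragments. IP was above IgG in both, with folds of 1.97 (1.63 to 2.38) and 2.45 (1.27 to 5.29). Its log2 ratios of 0.95 and 1.26 had a mean of 1.11 ± 0.22 (SD, n = 2 pairs). In FPKM, a per-length measure, they were larger, at 1.71 and 2.14, while centred on the median of all genes the mean was smaller, at 0.53.

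The other kinases differed between the pairs. Eif2ak1, the haem-regulated kinase HRI (chromosome 5, 143817788 to 143904251, plus strand), had 483 IP against 353 IgG first-pair fragments, a fold of 1.16 (1.01 to 1.34), and a log2 ratio of -0.02 in FPKM. In the WT4 pair it had 78 IP against 0 IgG fragments, at least 7.01-fold higher against the floor. Eif2ak2, the double-stranded RNA sensor PKR (chromosome 17, 78852564 to 78882573, minus strand), was lower in first-pair IP, with 143 IP against 214 IgG fragments and a fold of 0.569 (0.457 to 0.706). In the WT4 pair it had 79 IP against 0 IgG fragments, at least 7.10-fold higher. Eif2ak1 and Eif2ak2 share their listed loci with other genes. Summed over the 4 kinases, the level was 222 scaled CPM in IP and 163 in IgG in the first pair, and 225 in IP and 39.99 in IgG in the WT4 pair.

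The 4 eIF2 subunit genes were mixed in the first pair, with log2 ratios of -0.50 to 0.37. All were higher in WT4 IP, at 0.41 to 6.66, with Eif2s3x and Eif2s3y at 0 in WT4 IgG. Of all 16217 genes tested 10670 were also higher in WT4 IP, and the WT4 median of all genes was 1.17. Eif2s1 and Eif2s2 lay below that median. Eif2s1, the alpha subunit that the kinases phosphorylate, had 84 IP against 54 IgG first-pair fragments and 40 IP against 8 IgG WT4 fragments. Its folds of 1.32 (0.930 to 1.9) and 1.35 (0.622 to 3.33) both have intervals that include 1. Eif2s2, the beta subunit, had 269 IP against 310 IgG first-pair fragments and 75 IP against 15 IgG WT4 fragments, for log2 ratios of -0.43 and 0.42. Its listed locus holds 4 genes. Eif2d, which is not an eIF2 subunit and can deliver tRNA without GTP, went opposite ways. It had 184 IP against 62 IgG first-pair fragments and 63 IP against 37 IgG WT4 fragments, for log2 ratios of 1.26 and -1.11. The listed locus of Eif2d holds 2 genes. Eif2a, which can act in place of eIF2 on some mRNAs, had 27 IP against 45 IgG first-pair fragments and 28 IP against 0 IgG WT4 fragments.

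The gamma subunit of eIF2 is encoded by a gene on each sex chromosome. Eif2s3x had 329 IP against 280 IgG first-pair fragments, and 24 IP against 0 IgG WT4 fragments. Eif2s3y had 174 IP against 212 IgG fragments, then 149 IP against 0 IgG fragments. Both were within 2-fold in the first pair, at log2 ratios of 0.00 and -0.50. Against the floor, WT4 IP exceeded WT4 IgG by at least 2.16-fold for Eif2s3x and 13.4-fold for Eif2s3y. The coding starts are shown because the 2 genes are similar. Capitals mark the 16 positions of the first 90 coding bases at which they differ (GENCODE vM21 transcripts, GRCm38, 5′ to 3′):
Eif2s3x: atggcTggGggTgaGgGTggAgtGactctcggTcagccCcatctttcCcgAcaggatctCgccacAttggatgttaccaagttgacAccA
Eif2s3y: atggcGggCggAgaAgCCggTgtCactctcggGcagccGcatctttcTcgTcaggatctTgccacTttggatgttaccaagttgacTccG
They were identical at 86.3% of 1416 aligned coding positions, with no identical stretch longer than 34 bases. Of the windows of 50 bases in the Eif2s3x transcript 36.2% occur in another annotated gene, in each case Gm2223, while 0% of those of Eif2s3y do.

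The 5 subunits of the exchange factor eIF2B were all within 2-fold in the first pair, as were 9696 of all 16217 genes tested. Their log2 ratios lay between -0.74 and 0.93, with a median of 0.62. Eif2b5, the catalytic epsilon subunit, had 288 IP against 158 IgG first-pair fragments and 58 IP against 5 IgG WT4 fragments. Its folds were 1.55 (1.27 to 1.9) and 3.13 (1.27 to 9.99). Eif2b4, the delta subunit, whose listed locus holds 2 genes, had 247 IP against 115 IgG first-pair fragments and 58 IP against 11 IgG WT4 fragments, for folds of 1.83 (1.46 to 2.30) and 1.42 (0.739 to 3.0). On counts IP was above IgG in both pairs for these subunits, without passing the test, and the WT4 interval of Eif2b4 includes 1. In FPKM a direction turned for each, with a first-pair log2 ratio of -0.25 for Eif2b5 and a WT4 ratio of -0.71 for Eif2b4. Centred on the median of all genes, the mean log2 ratio of Eif2b4 was 0.09. Eif2b3, the gamma subunit, had log2 ratios of -0.74 and 0.11. Eif2b1 and Eif2b2, the alpha and beta subunits, had 31 and 9 IP fragments in the WT4 pair and 0 IgG fragments each.

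Among the 14 eIF3 genes, 4 were at least 2-fold higher in first-pair IP and 0 lower, and 8 were higher and 2 lower in the WT4 pair. Over all genes the shares were 13.3% and 26.9% in the first pair, then 51.6% and 19.3% for WT4. For genes with a mean of at least 20 scaled CPM they were 9.32% and 19.6%, then 34.2% and 20.2%. Medians of the log2 ratio were 0.25 and 1.12, against -0.03 and 1.17 over all genes. Summed over the 14 genes the level was 1636 scaled CPM in IP and 1102 in IgG in the first pair, and 1469 in IP and 1365 in IgG in the WT4 pair. Eif3a, which builds the core of the complex, gave the most fragments of the group. It had 4553 IP against 2483 IgG first-pair fragments and 1311 IP against 353 IgG WT4 fragments. Its first-pair fold was 1.56 (1.49 to 1.64), while its WT4 fold was 1.0 (0.889 to 1.13). Eif3c, another core subunit, had 1787 IP against 906 IgG first-pair fragments and 251 IP against 48 IgG WT4 fragments. Its folds were 1.68 (1.55 to 1.82) and 1.41 (1.03 to 1.96), and its listed locus holds 2 genes. Centred on the median of all genes, the mean log2 ratios were -0.25 for Eif3a and 0.05 for Eif3c.

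Eif3g, an RNA-binding subunit of eIF3 (chromosome 9, 20894349 to 20898623, minus strand), had the highest first-pair ratio of all members. It had 528 IP against 106 IgG first-pair fragments and 35 IP against 0 IgG WT4 fragments. In scaled CPM this was 80.0 in IP and 18.9 in IgG, then 23.6 in IP and 0 in IgG. The fold was 4.24 (3.44 to 5.27) in the first pair and at least 3.14 against the floor in the WT4 pair. Its transcript shares no window of 50 bases with another annotated gene. edgeR gave a log2 fold change of 3.32 (unadjusted p = 0.149, adjusted p = 1.0, higher in both pairs). Eif3m, another eIF3 subunit (chromosome 2, 104999656 to 105017080, minus strand), had 90 IP against 26 IgG first-pair fragments and 26 IP against 0 IgG WT4 fragments. Its fold was 2.95 (1.89 to 4.75), then at least 2.34. Its count is uncertain, since it shares a listed locus and 37.3% of its windows with another gene.

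The other eIF3 genes varied. Eif3i, a beta-propeller subunit, had 266 IP against 105 IgG first-pair fragments but 29 IP against 27 IgG WT4 fragments, for log2 ratios of 1.07 and -1.74. Eif3f, an MPN-domain subunit, had 222 IP against 178 IgG first-pair fragments and 24 IP against 0 IgG WT4 fragments, for log2 ratios of 0.08 and 4.10. Eif3j1 had 687 IP against 212 IgG fragments, then 37 IP against 15 IgG fragments, for log2 ratios of 1.44 and -0.57. In FPKM the WT4 ratio of Eif3j1 was 2.33, the opposite direction, from 22.1 FPKM in IP and 3.59 in IgG. Its copy Eif3j2 had 144 IP against 161 IgG fragments, then 38 IP against 60 IgG fragments, for ratios of -0.38 and -2.50. The coding sequences of these 2 genes share an identical run of 781 bases, and 90.8% of the windows of the Eif3j2 transcript occur in Eif3j1. Their fragments therefore cannot be assigned with certainty to 1 copy. The log2 ratios of Eif3b, Eif3d, Eif3e, Eif3h, Eif3k and Eif3l ranged from -0.82 to 0.39 in the first pair and from 0.60 to 4.16 in the WT4 pair, with Eif3e and Eif3k at 0 in WT4 IgG.

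**Figure D3:**
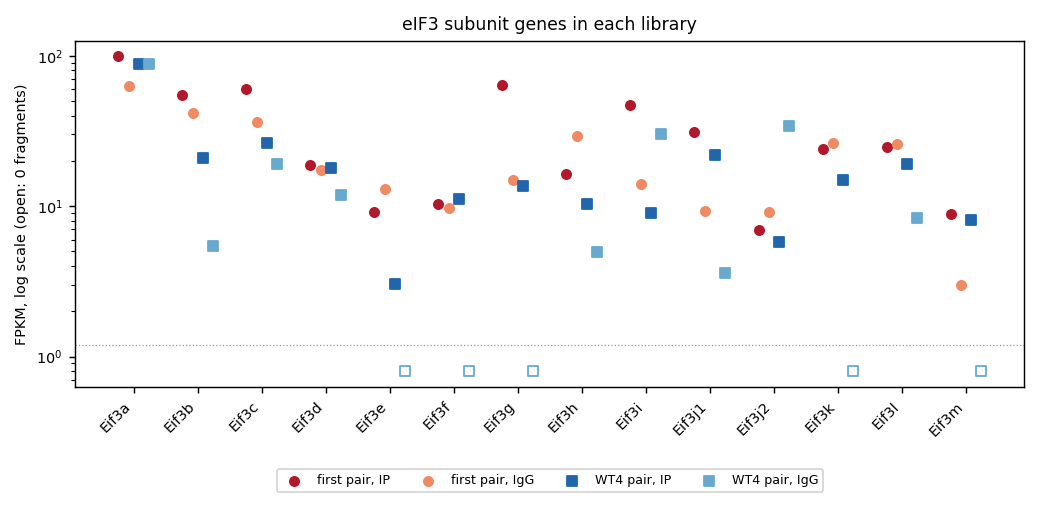
The deposited FPKM of the 14 eIF3 genes is plotted on a log scale for each library, circles for the first pair and squares for the WT4 pair, with IP to the left of IgG. Open symbols under the dotted line mark 0 fragments, which occurred for 5 of the genes, all in the WT4 IgG library. Eif3a is the highest of these genes in each library, at 63.5 to 99.0 FPKM.

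The eIF4 genes reached the highest per-length levels of all members. In FPKM the highest were Eif4g2 in the first IP library, at 363, and Eif4a1 in the other 3, at 293 in the first IgG library, 296 in WT4 IP and 306 in WT4 IgG. None of the 12 was at least 2-fold higher in first-pair IP, and 1, Eif4e1b, was lower. By WT4 ratios 4 were higher and 1 lower. Over all genes 13.3% were higher and 26.9% lower in the first pair, and 51.6% higher and 19.3% lower by WT4 ratios. For genes with a mean of at least 20 scaled CPM these shares were 9.32%, 19.6%, 34.2% and 20.2%. Eif4a1, the cap-associated helicase, had 2473 IP against 3890 IgG first-pair fragments and 1222 IP against 318 IgG WT4 fragments. Its folds were 0.541 (0.514 to 0.569) and 1.04 (0.915 to 1.18), so that IP was below IgG in the first and level with it in the WT4 pair. Of its windows 65.3% occur in other annotated genes, 64.9% in Eif4a-ps4, and its listed locus holds 2 genes. Eif4a3, the helicase of the exon junction complex, had 141 IP against 95 IgG first-pair fragments and 41 IP against 0 IgG WT4 fragments.

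The scaffold genes Eif4g1 and Eif4g2 had more IP than IgG in both pairs on counts. Eif4g1, which joins the cap-binding protein to the helicase and to eIF3, had 6749 IP against 4400 IgG first-pair fragments and 996 IP against 113 IgG WT4 fragments. Its folds were 1.31 (1.26 to 1.36) and 2.38 (1.95 to 2.91), with IP above IgG in both. In FPKM it stood at 170 in IP and 138 in IgG, and WT4 gave 92.0 in IP and 95.3 in IgG, so the WT4 difference was not seen per length. Eif4g2, a homologue that lacks the cap-binding protein's site, had 6644 IP against 4013 IgG first-pair fragments and 604 IP against 101 IgG WT4 fragments, for folds of 1.41 (1.35 to 1.47) and 1.61 (1.30 to 2.01). Eif4g2 is described because it was the highest in FPKM in a library. In FPKM its log2 ratios were 1.12 and -0.33. The paralogue Eif4g3 had log2 ratios of -0.36 and 1.05. The cap-binding protein gene Eif4e had -0.34 and 0.74, and its relatives Eif4e2 and Eif4e3 had first-pair values of -0.22 and 0.54, with WT4 values of -0.66 and -0.79. The WT4 ratio of Eif4e2 was 0.50 in FPKM. Eif4a2 had -0.14 and 0.21, Eif4b, a helper of the helicase, 0.51 and -0.08, and Eif4h, another helper, -0.09 and -1.47.

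The 3 tested regulators of the cap-binding protein were within 2-fold in the first pair, as were 9696 of all 16217 genes tested. Eif4ebp1, a repressor that mTORC1 phosphorylates, had 343 IP against 406 IgG first-pair fragments and 44 IP against 0 IgG WT4 fragments, at least 3.95-fold higher against the floor. Eif4ebp2, its relative, had 795 IP against 564 IgG fragments, then 56 IP against 34 IgG fragments, for log2 ratios of 0.26 and -1.15. The 2 repressor genes thus lay on opposite sides of IgG in the WT4 pair. Eif4enif1, which carries the cap-binding protein into the nucleus, had 354 IP against 321 IgG fragments, then 139 IP against 13 IgG fragments, for -0.09 and 1.5, and 0.41 and 2.40 in FPKM. Its listed locus holds 3 genes. Eif4ebp3 had 0 fragments in all 4 libraries. Its listed locus is shared, and 65.5% of its windows occur in 1 other annotated gene, so a count of 0 does not show that it is not expressed.

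Eif1, which helps the ribosome choose the start codon, had log2 ratios of -0.05 in the first pair and 0.10 for WT4. It had 1166 IP against 1030 IgG first-pair fragments and 143 IP against 36 IgG WT4 fragments, for folds of 0.963 (0.885 to 1.05) and 1.07 (0.739 to 1.59). Centred on the median of all genes its mean log2 ratio was -0.55. Eif1ad, a domain relative of eIF1A, had 165 IP against 89 IgG first-pair fragments but 39 IP against 47 IgG WT4 fragments, for log2 ratios of 0.63 and -2.12. Eif1ax, the eIF1A gene of the X chromosome, had 399 IP against 261 IgG fragments, then 25 IP against 0 IgG fragments, at least 2.25-fold higher. On counts its first-pair log2 ratio was 0.37, but in FPKM it was -1.88. Eif1a had 0.04 and 1.05. Eif1b had 0 IP against 16 IgG first-pair fragments and 2 IP against 0 IgG WT4 fragments, too few there to bound a fold.

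Many WT4 ratios rest on a library at 0. Of the 54 tested genes 19 had 0 fragments in WT4 IgG, against 43.0% of all genes. In WT4 IP 0 of the 54 had none, against 3.13% of all genes. Among genes with a mean of at least 20 scaled CPM in the other 3 libraries, 11 of 44 initiation factor genes were at 0 there, against 21.7% of all such genes. The first IP library listed Eif1b, Eif4e1b and Eif5a2 at 0, against 30.0% of all genes. Those 3 had between 16 and 48 fragments in the first IgG library. The first IgG library listed none of the 54 at 0, against 20.1% of all genes. Among all genes with a mean of at least 20 scaled CPM, 2.96% were at 0 in that library.

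**Figure D4:**
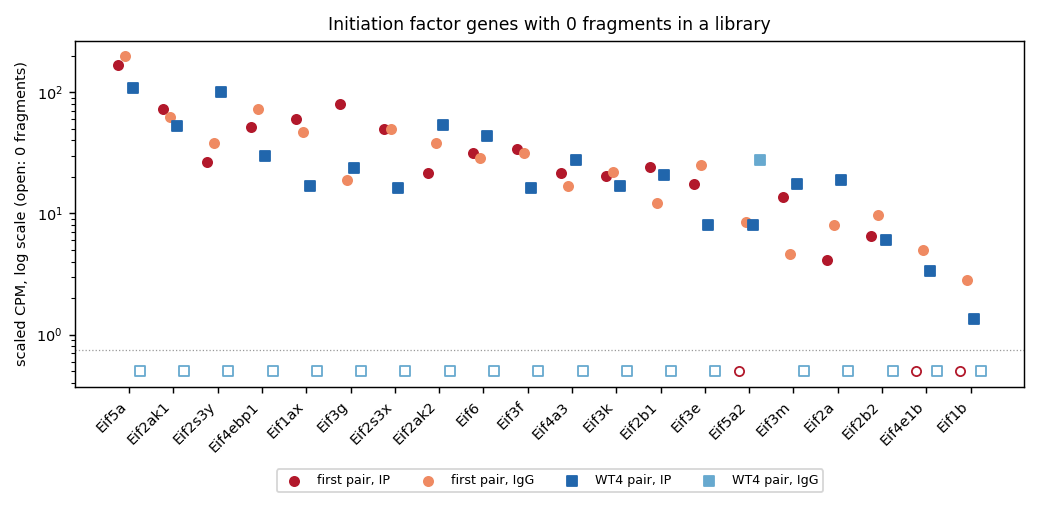
The scaled CPM of the 20 tested initiation factor genes with 0 fragments in at least 1 library is plotted on a log scale, circles for the first pair and squares for the WT4 pair, with IP to the left of IgG. Open symbols under the dotted line mark 0 fragments, 19 of them in the WT4 IgG library and 3 in the first IP library. Eif5a, at 109 to 197 scaled CPM in the other 3 libraries, is the most abundant of them.

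The measure mattered for some genes. Ratios on FPKM and on scaled counts differed by more than 1 on the log2 scale for 5 of 54 genes in the first and for 17 in the WT4 pair. By FPKM 10 genes in the first pair were past 2-fold towards IP and 7 towards IgG, against 6 and 3 on counts. The shares of all genes by FPKM are not given. Eif2b1 had a first-pair log2 ratio of 0.93 on counts and 2.37 in FPKM. Of the 55 genes 16 have a listed locus that holds other genes too, which is 29.1%, against 25.9% of all symbols. At least 5% of the windows of 50 bases occur in other annotated genes for 20 of the 55. That share over all genes is not given. Counts of the genes in either group are uncertain.

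Of 40 other genes of translation and its control that were tested, 2 were at least 2-fold higher in first-pair IP and 3 lower, and 16 were higher and 2 lower in the WT4 pair. Over all genes these shares were 13.3%, 26.9%, 51.6% and 19.3%. The medians were -0.09 and 0.47, against -0.03 and 1.17 over all genes. Genes with a mean of at least 20 scaled CPM had medians of -0.13 and 0.29. Their shares, in the same order, were 9.32%, 19.6%, 34.2% and 20.2%. The WT4 median of the 40 genes was thus below that of all genes but above that of genes at this level. In both pairs 0 of the 40 were 2-fold higher and 0 lower, against 7.19% and 5.25% of all genes. Of the 7681 genes with a mean of at least 20 scaled CPM, 214 were higher in both and 448 lower in both. None passed edgeR's test (adjusted p = 1.0 for each), and 1, the elongation factor subunit Eef1b2, had an unadjusted p under 0.05. Eef1b2 had 969 IP against 732 IgG first-pair fragments and 158 IP against 0 IgG WT4 fragments. Atf4, the transcription factor translated when eIF2 is phosphorylated, had log2 ratios of 0.31 and -0.52, and Mtor, the kinase upstream of Eif4ebp1, had -0.17 and -0.10.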

How the data were processed

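RNA immunoprecipitated from mouse brown adipose tissue was measured in 4 libraries. The mm10 build and the tools Cuffdiff, Cufflinks, HISAT2 and cutadapt 1.9.3 are named per the submitters' processing notes, with roles and annotation release not given in the sources used here. The authors deposited 1 table per pair, each normalized separately, with an estimated count per gene and library, and its FPKM. Within each library the deposited estimated counts go up in equal steps (94.5% to 97.9% of values lie within 0.05 of a whole number of steps), and the count divided by the step, rounded, is called fragments. Scaled CPM divides the deposited scaled count by the mean total of its pair. Genes with a mean of at least 1 scaled CPM were tested (16217). edgeR 4.0.16 (quasi-likelihood, R 4.3.3) was fitted on fragments with the authors' scaling and the pair as a block, with Benjamini-Hochberg adjustment over all tested genes. The pairing comes from the tables and titles, since the labels give no replicate numbers. Within a pair there is 1 library per group and no test. Fold intervals are 95% exact (Clopper-Pearson) and cover counting error only, and bounds use a floor of 3 fragments per library. DESeq2 1.42.0, limma 3.58.1 and other settings were alternatives. The edgeR script was tested on simulated data. Shared windows and coding sequences came from GENCODE vM21 (GRCm38). The members, gene lists and markers were chosen with earlier results of these data known. Genes given in full were the 4 kinases, the 2 highest of each factor, those 2-fold the same way in both pairs, those at 0 in a library with at least 20 scaled CPM in the others, and any past the test; others named were chosen after their values were seen.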

Additional observations from a re-analysis of the deposited data

Results flagged for a closer look

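Eif1b, Eif2d, Eif3i and Eif4e1b were picked out because their IP over IgG ratio went at least 2-fold one way in the first pair and the opposite way in the WT4 pair. With 1 library per group in a pair, the difference was not tested. Eif2d, the factor that can deliver tRNA without GTP, had log2 ratios of 1.26 (first) and -1.11 (WT4). Eif3i, an eIF3 subunit, had 1.07 and -1.74. For both genes every library held at least 27 fragments. The listed locus of Eif2d holds 2 genes, which makes its count uncertain. In FPKM its log2 ratios were 1.93 and -0.90, so the WT4 ratio was then within 2-fold. Eif1b had -1.94 and 1.23, from 0 IP against 16 IgG first-pair fragments and 2 IP against 0 IgG WT4 fragments. Eif4e1b, a relative of the cap-binding protein gene, had -2.58 and 2.13, from 0 IP against 28 IgG fragments, then 5 IP against 0 IgG fragments.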

How the results depend on the processing

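The 6 initiation factor genes past 2-fold towards IP in the first pair became 3 with a pseudocount of 5 scaled CPM and 10 in FPKM. The 3 lower genes became 1 with that pseudocount, 1 with a mean of at least 10 scaled CPM, 7 in FPKM and 0 among genes with a fragment in all 4 libraries, a restriction chosen after seeing the data. In the WT4 pair the 30 higher genes became 18 and the 7 lower 15 when centred on the median of all genes, and 11 were higher under the restriction. The 3 genes higher in both pairs became 1 with the larger pseudocount, 6 with TMM factors, 6 in FPKM and 1 under the restriction, where the 1 lower in both became 0. For the pseudocount, the centring, TMM, FPKM and the mean of at least 10, no share of all genes is given. Those counts therefore describe the members only. Over all genes edgeR called 1, DESeq2 3, limma 0 and the fit with no replicate block 0, and leaving out 1 library without that block gave 0 to 7. None of these fits called an initiation factor gene (lowest adjusted p from 0.561 to 1.0). The Eif5a log2 fold change ran from -0.51 without WT4 IgG to 11.6 without first IgG, where WT4 IgG at 0 is the IgG library left. The causes were not tested. Every WT4 ratio uses the WT4 IgG library, which had the fewest fragments, at 360371.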
